A study of Homo sapiens with 12 samples.

Results

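Desmosomes are spot-like junctions that tie the keratin filaments of neighbouring epithelial cells to each other. Cadherins of the desmoglein and desmocollin families reach across the gap between cells, their tails are held inside by the armadillo proteins plakoglobin and plakophilin, and desmoplakin links that plaque to the filaments. Stratified squamous epithelia such as skin and oral mucosa are rich in these junctions and carry forms of the cadherins and plakophilins that simple glandular epithelia mostly lack.

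The 5 genes described here are PKP1, which encodes plakophilin 1, DSP, which encodes desmoplakin, DSG3 and DSC3, which encode desmoglein 3 and desmocollin 3, and PERP, which encodes a tetraspan membrane protein of desmosomes and a target of p53 and p63. The acetyl mark at lysine 27 of histone H3 (H3K27ac), found at promoters and enhancers in use, had been mapped by chromatin immunoprecipitation and sequencing, and each library was available as a list of peaks on the hg19 build. Every peak within 50 kb of a gene counted as near it. Such peaks from 8 libraries, once overlapping ones were merged, formed 39 regions of the 70648 in the whole genome. The genes were selected on these same lists: PKP1 lies inside the cluster of peaks with the highest score in HCC95, and the other 4 were added with differences between the lines already known. The differences are therefore given as a description, with no test. A permutation over 2 squamous and 3 glandular lines has 10 assignments and could not go below an exact p of 0.1.

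The squamous lines were HCC95, from a squamous cell lung carcinoma, and BICR31, named in the series text as head and neck squamous although the tumor type entered for its sample is lung adenocarcinoma. The glandular lines were the lung adenocarcinoma lines H358 and H2009 and the endometrial carcinoma line Ishikawa. All were established cancer cell lines labelled as untreated, grown in the same medium and precipitated with the same antibody. HCC95 and BICR31 had 1 library each, and H358, H2009 and Ishikawa had 2 each. The labels do not say whether the 2 came from separate cultures, so the spread between them may be technical. An adenocarcinoma line is a tumor line and not normal glandular epithelium, and each squamous library stands for 1 line of 1 organ.

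The lists held 23400 peaks in HCC95 and 42148 in BICR31, against 26866 and 26954 in H358, 26887 and 26412 in H2009 and 24384 and 27311 in Ishikawa. Peaks covered 21.4 Mb in HCC95 and 40.6 Mb in BICR31, against 10.9 to 12 Mb in the H358 and H2009 lists and 32.5 to 41.4 Mb in Ishikawa. Median peak width was 814 bp in HCC95 and 893 bp in BICR31, against 347 to 382 bp in the lung adenocarcinoma lists and 955 to 1507 bp in Ishikawa. The form of the deposited list moved with the type of line: broad peaks for the squamous lines, narrow peaks for the lung adenocarcinoma lines and a 5-column list for Ishikawa. The form of the list and the type of line cannot be told apart in any comparison below. Read depth is unknown, because a peak list holds no read numbers.

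Marker genes were read in the same way, as called bases (bases inside peaks) within 1 kb of a gene start. KRT5, a keratin of basal squamous cells, had 292 called bases in HCC95 and 1404 in BICR31, against none in any of the 6 glandular libraries. SOX2, a transcription factor amplified in squamous cancers, had 1819 called bases in HCC95 and 1181 in BICR31, against 474 and 294 in H358, 0 and 251 in H2009 and none in Ishikawa. KRT14, the partner of KRT5 in basal cells, had 700 called bases in HCC95 and 0 in BICR31, against 247 and 0 in H358 and none in H2009 or Ishikawa. TP63, the master regulator of squamous identity, had no peak at the start of its long form in any library, and within 5 kb of the gene it had 10469 called bases in HCC95 and 12583 in BICR31, against 12517 and 7663 in Ishikawa and 569 to 1217 in the lung adenocarcinoma libraries. Of these 4 squamous markers, 3 had a start peak in HCC95 and 2 in BICR31, against 2 and 1 in H358, 0 and 1 in H2009 and none in Ishikawa. All 4 had a peak within 5 kb of the gene in both squamous libraries, with 17072 called bases in HCC95 and 18880 in BICR31, against 13744 and 7663 in Ishikawa and 844 to 2358 in the lung adenocarcinoma libraries. NKX2-1, a defining factor of lung adenocarcinoma, had 1832 called bases at its start in BICR31 and none in HCC95, against 191 and 0 in H358 and none in H2009 or Ishikawa. SFTPB, a surfactant gene, had none in any library, so H2009 carried neither lung adenocarcinoma marker. The endometrial marker ESR1 was marked at its start in both Ishikawa libraries alone and PAX8 in Ishikawa replicate 2 alone. EPCAM and CDH1, general epithelial genes, KRT8, a keratin of simple epithelia, and ZEB1 were marked at the start in all 8 libraries and VIM in none. FOXA1 was marked at the start in all lines except H2009, and FOXA2 in HCC95 and H358. The part that the mixed marker state of BICR31 plays in the results below was not tested.

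The starts of the 5 genes differ in base composition, and 3 are shown as examples of different patterns of marking: DSG3, marked in the squamous libraries alone, PKP1, marked in the squamous libraries and H2009, and PERP, marked in all 8. The sequences are RefSeq promoters on GRCh38.p14, from 250 bases before to 50 after the annotated start, written 5′ to 3′ on the gene's strand: DSG3 at chr18:31447491-31447790 on the plus strand, PKP1 at chr1:201283256-201283555 on the plus strand and PERP at chr6:138107370-138107669 on the minus strand. Capitals mark matches to a GC box or to an AP-1 site on either strand.
DSG3: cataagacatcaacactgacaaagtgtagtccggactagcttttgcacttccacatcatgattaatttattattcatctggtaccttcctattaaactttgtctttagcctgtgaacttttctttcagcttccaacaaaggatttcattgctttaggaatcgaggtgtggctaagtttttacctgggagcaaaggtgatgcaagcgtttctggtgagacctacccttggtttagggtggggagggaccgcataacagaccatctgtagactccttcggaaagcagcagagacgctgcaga
PKP1: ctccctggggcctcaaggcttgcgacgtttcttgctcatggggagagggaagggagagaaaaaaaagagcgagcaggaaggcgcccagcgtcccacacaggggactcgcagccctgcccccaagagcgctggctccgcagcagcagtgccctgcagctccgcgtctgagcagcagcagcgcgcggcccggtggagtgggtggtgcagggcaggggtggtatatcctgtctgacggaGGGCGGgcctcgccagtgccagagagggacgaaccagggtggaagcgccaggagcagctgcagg
PERP: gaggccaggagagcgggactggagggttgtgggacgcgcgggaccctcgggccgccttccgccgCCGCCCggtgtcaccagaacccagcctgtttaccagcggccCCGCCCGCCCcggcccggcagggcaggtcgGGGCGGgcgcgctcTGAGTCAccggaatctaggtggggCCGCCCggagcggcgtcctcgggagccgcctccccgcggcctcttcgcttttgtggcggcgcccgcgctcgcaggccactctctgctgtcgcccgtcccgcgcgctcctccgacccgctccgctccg
Guanine and cytosine made up 44% of the DSG3 promoter, 67.3% of the PKP1 promoter and 77% of the PERP promoter, against a median of 58.7% over 35116 RefSeq promoters. The DSG3 promoter held 6 CpG dinucleotides, PKP1 19 and PERP 43, with a median of 14 over all promoters. The promoters of DSP (77% GC, 37 CpG) and DSC3 (63.3% GC, 25 CpG) were also above the median. Thus the 1 start with a peak in the squamous libraries alone was also the only 1 of the 5 with fewer CpG than the median promoter.

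A set of 5 motifs were searched on both strands of all promoters. The GC box GGGCGG matched 8 times in DSP, 5 times in PERP, once in PKP1 and not in DSG3 or DSC3, and 45% of all promoters hold it. The AP-1 site TGANTCA matched once, in PERP at position -101 from the start, and 7.71% of all promoters hold it. A loose pattern of the full p53 family site matched 8 times in PERP and 5 times each in DSP and DSC3. It matched 3 times in PKP1 and not in DSG3, and some of its matches in DSP and PERP overlap GC boxes. That pattern is in 74% of all promoters. The TATA box TATAAA (11.5% of promoters) and the TEAD site GGAATG (14%) had no match in any of the 5.

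Of the 39 regions, 4 had a peak in both squamous libraries and in no glandular library, or 10.3%. Across the genome 3.56% of regions had that pattern. The 4 were 3 of the 15 regions near PKP1 and 1 of the 10 near DSG3, with none near DSP, DSC3 or PERP. A wider class, with a peak in 1 or both squamous libraries and in no glandular library, took 21 of the 39 regions (53.8%), against 31.7% of all regions. Of those 21, 11 were in BICR31 alone, which has the longest list, and 6 in HCC95 alone. The opposite class, marked in at least 1 glandular library and in neither squamous library, took 3 regions (7.69%), against 32.1% of all regions. Another 3 regions (7.69%) were marked in all 8 libraries, against 12.1% of all regions, and the remaining 12 (30.8%) were mixed. Genome shares are not given for regions in a single squamous library or for mixed regions, so those counts have no background beside them. The Ishikawa lists hold neither fold enrichment nor q, so both rank filters used their 1 deposited score. When each list was limited to the higher-ranked 50% of its peaks by fold enrichment, the count was 0 near the genes and 770 in the genome (2.16% of its regions). By −log10 q it was 3 near the genes and 898 in the genome (2.71%). In lists of equal length the count was 1 by fold enrichment, with 1304 in the genome (2.27%), and 4 by −log10 q, with 1407 (2.56%). With HCC95 standing alone for the squamous lines the count was 10 of 29 regions (34.5%), against 12.3% of all regions. With BICR31 standing alone it was 18 of 37 (48.6%), against 27.1% of all regions, so the counts of both the windows and the genome were higher under these settings.

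**Figure D1:**
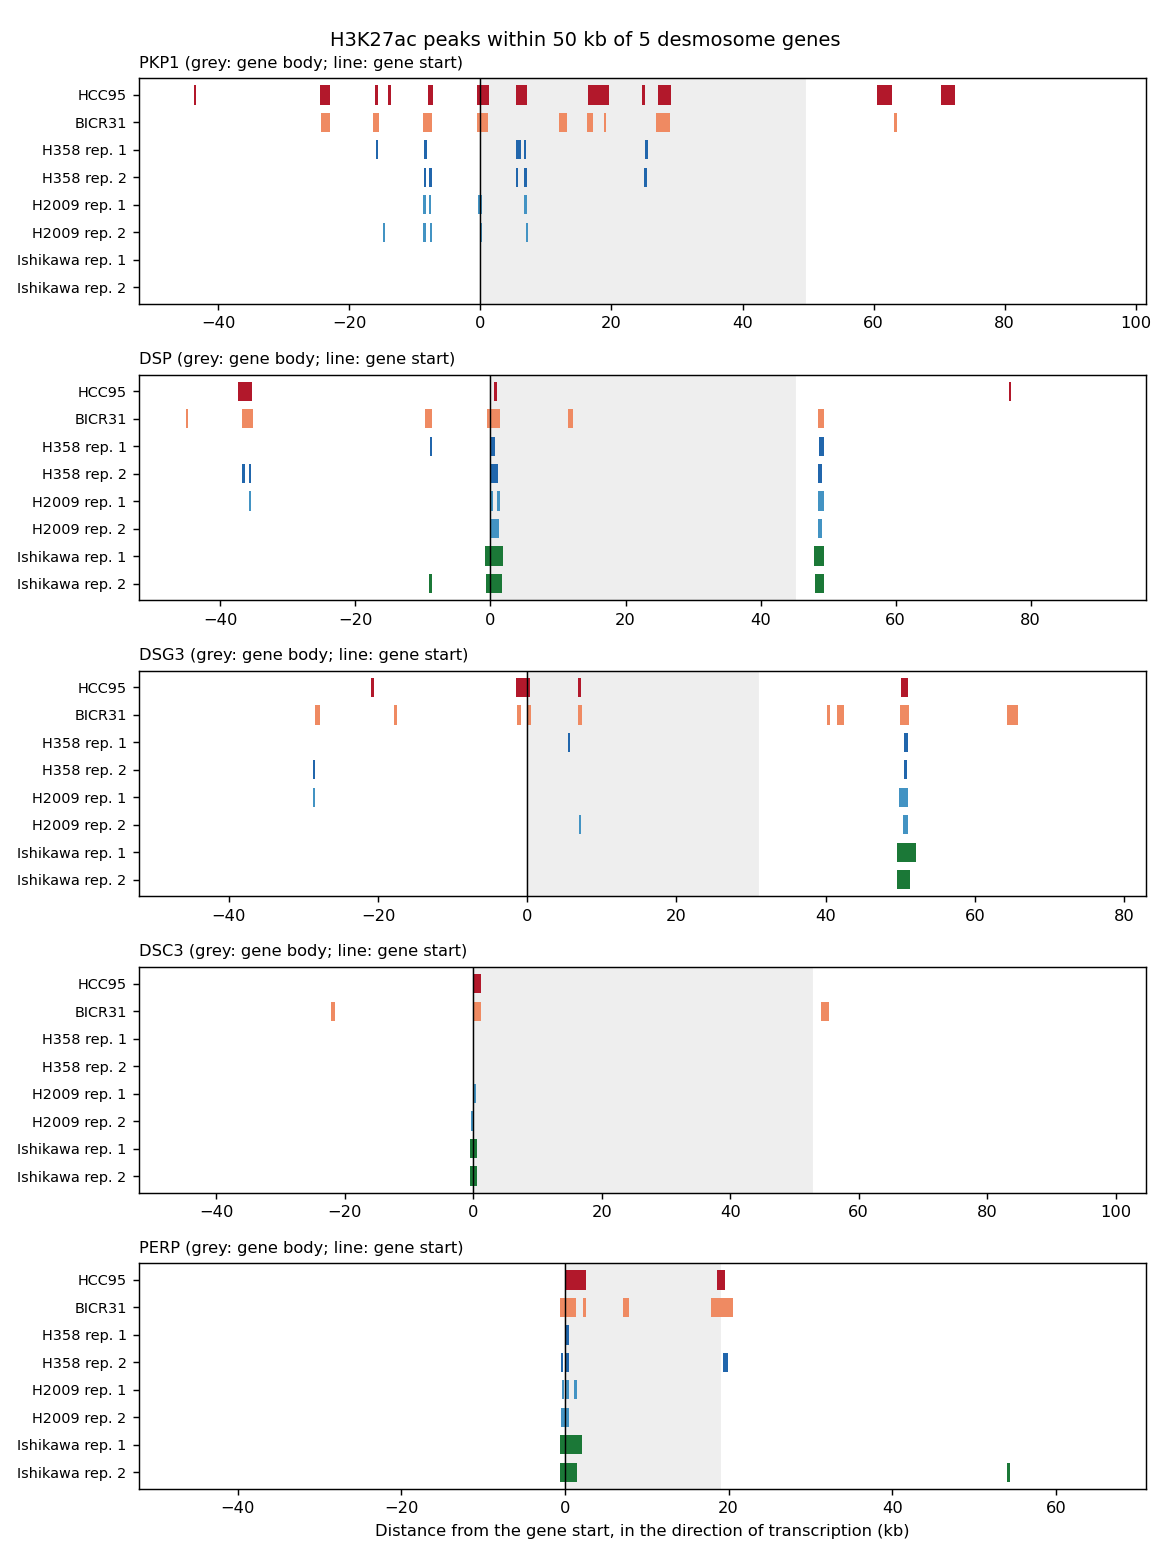
H3K27ac peaks near the 5 genes, one panel per gene and one row per library, squamous libraries at the top. The x axis is the distance from the gene start in kb along the direction of transcription, the grey band is the gene body and each bar is 1 deposited peak at its true width. PKP1 carries 12 and 9 peaks in the squamous libraries and none in Ishikawa, whereas the DSP and PERP starts carry a peak in every row.

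The map of peaks shows how they lie along each gene. Near PKP1 the squamous rows hold a string of wide peaks that starts upstream of the gene and runs through its body. At the starts of DSP and PERP every row has a peak, and BICR31 and HCC95 have further peaks upstream of DSP and at the far end of PERP. Upstream of DSP so have both H358 libraries, H2009 replicate 1 and Ishikawa replicate 2, and at the far end of PERP H358 replicate 2. Near DSC3 a single region at the start holds nearly everything outside BICR31.

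PKP1 showed the widest difference. The window held 12 peaks and 17240 called bases in HCC95 and 9 peaks and 9994 called bases in BICR31. H358 had 2059 and 1849 called bases, H2009 1683 and 1495, and both Ishikawa libraries had none. The squamous and glandular libraries did not overlap. Of 150 kb tiles of the genome with a peak in any library, 13.5% had that pattern, and 22.3% of those with a peak in both squamous libraries. The gap between BICR31 and the highest glandular library was 7935 bases, against a replicate SD of 115 bases pooled over the 3 glandular lines. Without BICR31 the gap was 15181 bases, and in the higher-ranked 50% of each list by fold enrichment it was -457. By line the glandular values were 1954 ± 148 called bases in H358, 1589 ± 133 in H2009 and 0 in Ishikawa (SD, n = 2 each). The Ishikawa SD of 0 lowers the pooled SD, and the squamous lines, with 1 library each, have no SD. The difference also held as a share of each list, at 80.5 per 100000 called bases in HCC95 and 24.6 in BICR31, against 17.5 and 15.4 in H358, 15.5 and 13.1 in H2009 and none in Ishikawa.

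The PKP1 start was marked at chr1:201252041-201253862. HCC95 had a peak of 1822 bp with a fold enrichment of 3.17 over local background, the authors' value, and BICR31 had 1667 bp at 3.53. Called bases within 1 kb of the start were 1540 in HCC95 and 1457 in BICR31, against 549 and 261 in H2009, whose peaks there were shorter. H358 and Ishikawa had no peak at the start. H358 nevertheless carried peaks on both sides of it, so the start was bare in a line where the flanks were marked.

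The 3 regions near PKP1 found in both squamous libraries alone lay at chr1:201228135-201229638, upstream of the gene, and at chr1:201268924-201272174 and chr1:201279395-201281716, both inside the gene. The second was the widest of the 39 regions at 3251 bp, filled by 1 peak of 3237 bp in HCC95 and by 2 peaks of 827 and 258 bp in BICR31. The upstream region, 22.9 kb from the start, had the highest fold enrichment of any PKP1 peak in BICR31, 4.59, and 2.97 in HCC95.

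Other PKP1 regions were shared with the lung adenocarcinoma lines. A region 7.25 kb upstream, chr1:201243860-201245335, was marked in both squamous libraries and in all 4 H358 and H2009 libraries. An intronic or exonic assignment is not given because no hg19 annotation was at hand. The region at chr1:201258063-201259780, just inside the gene, was marked in HCC95, H358 and H2009 and not in BICR31. A further 2 regions were marked in squamous libraries and H358, at chr1:201236190-201237057 (both squamous libraries and H358 replicate 1) and chr1:201277302-201278116 (HCC95 and both H358 libraries). HCC95 alone carried wide peaks past the end of the gene, at chr1:201313106-201315439 and chr1:201322809-201324994, beside TNNT2, the next gene in RefSeq order. Within 5 kb of TNNT2, which encodes cardiac troponin T, HCC95 had 1859 called bases and no other library had any. The sole region near PKP1 without a squamous peak was 262 bp long and in H2009 replicate 2.

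Neighbouring peaks were joined into clusters, at the distance in common use for enhancer clusters, and scored by the sum of width times the authors' value. The PKP1 cluster of HCC95 ranked 1 of 19855, which is what brought the gene into view, and spanned 53.6 kb with 9 peaks at chr1:201228135-201281716. In BICR31 the cluster ranked 60 of 29737 and spanned 53.2 kb with 8 peaks at chr1:201228337-201281536, so its ends fell within 1 kb of those in HCC95. In H2009 the clusters on PKP1 ranked 442 of 18800 and 1227 of 18174, in H358 4828 of 18468 and 9285 of 18001, and Ishikawa had none. Scored by width times −log10 q, the HCC95 cluster ranked 9 and the BICR31 cluster 115.

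The rank of PKP1 rested on width and number of peaks, not on their height. The 3237 bp peak in HCC95 had a fold enrichment of 2.28, higher than just 0.607% of the peaks of its list, and ranked above 67.2% by −log10 q. The start peak of HCC95 ranked above 14.3% of its list by fold enrichment and 98.8% by −log10 q. The start peak of BICR31 ranked above 33.3% by fold enrichment and 82.3% by −log10 q. Across the whole HCC95 list, width and fold enrichment had a Spearman rho of -0.13 over peaks, and across BICR31 0.01, against 0.43 to 0.50 in the narrow lists. Peaks of at least 1500 bp had a median fold enrichment of 3.42 in HCC95, against 3.87 for its shorter peaks, and of 3.72 in BICR31, against 3.84. A filter by fold enrichment thus did not favour the wide peaks of the squamous lists, as it did in the narrow lists. In the Ishikawa lists, ranked by their score instead, width and score had a rho of 0.62 and 0.71, so wide peaks were favoured there.

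**Figure D2:**
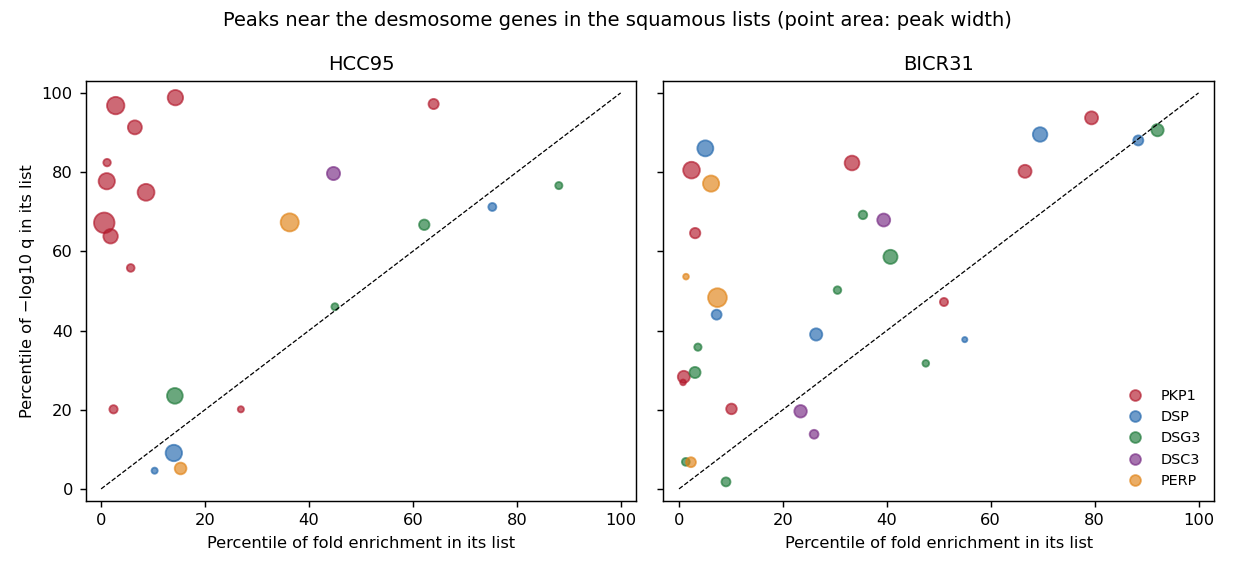
Peaks near the 5 genes in HCC95 (left) and BICR31 (right), by the percentile of their fold enrichment (x axis) and of their −log10 q (y axis) within their own list. Point area is proportional to peak width and the dashed line marks equal percentiles; the wide PKP1 peaks of HCC95 sit at the upper left, such as the start peak at 14.3 by fold enrichment and 98.8 by −log10 q.

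The plot of both percentiles shows that most squamous peaks near these genes stood higher in their list by −log10 q than by fold enrichment. The exceptions lie at or below the dashed line, among them the narrow DSP start peak of HCC95 and the DSP peak of HCC95 upstream of the gene.

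DSG3 is a cadherin of the lower layers of stratified epithelium and the main autoantigen of pemphigus vulgaris. Its start was the 1 start of the 5 marked in no glandular library. The region chr18:29026168-29028291 held a peak of 1905 bp with a fold enrichment of 3.17 in HCC95 and 2 peaks of 567 and 472 bp with 3.56 and 2.59 in BICR31. Called bases within 1 kb of the start were 1341 in HCC95 and 646 in BICR31, against 0 in each of the 6 glandular libraries. These peaks were of middling to low rank, from 1.31 to 35.4 percentile by fold enrichment and 6.83 to 69.2 by −log10 q.

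The whole DSG3 window held 3526 called bases in HCC95 and 6511 in BICR31, against 737 and 606 in H358, 1563 and 979 in H2009 and 2654 and 1718 in Ishikawa. The groups did not overlap, as in 13.5% of 150 kb tiles of the genome, by a gap of 872 bases beside a pooled replicate SD of 454 bases. The gap changed sign in 3 of 15 alternative settings, to values between -1147 and -1491 bases. Much of the glandular signal was not at DSG3: a region at chr18:29077251-29079904, marked in all 8 libraries, lies at the start of DSG2, the desmoglein of simple epithelia. Without the peaks at that start, the window held 2683 called bases in HCC95 and 5348 in BICR31, against 247 and 321 in H358, 337 and 315 in H2009 and none in Ishikawa. The BICR31 value still holds a peak of 1531 bp at chr18:29092013-29093543. With that peak, BICR31 had 2694 called bases within 5 kb of DSG2. A region inside the gene, chr18:29034586-29035030, was marked in both squamous libraries and in H2009 replicate 2. Another, 27.8 kb upstream at chr18:28998974-28999915, was marked in BICR31, H358 replicate 2 and H2009 replicate 1. BICR31 alone had 4 regions near DSG3, 3 of them past the end of the gene.

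DSC3, the desmocollin of the same lower layers, had few peaks anywhere. The window held 1336 called bases in HCC95 and 3100 in BICR31, against 0 in both H358 libraries, 437 and 301 in H2009 and 1149 and 938 in Ishikawa. The gap between HCC95 and the higher Ishikawa library was 187 bases, and it changed sign in 4 of 15 alternative settings. The pooled replicate SD was 102 bases, lowered by an SD of 0 in H358, and the SD in Ishikawa was 149 bases. With flanks of 100 kb the gap was -482 bases.

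Most of this signal lay in 1 region at the DSC3 start, chr18:28621516-28623288. Called bases within 1 kb of the start were 1103 in HCC95 and 1026 in BICR31, against 0 and 0 in H358, 437 and 301 in H2009 and 1149 and 938 in Ishikawa. At the start itself the squamous values thus lay inside the range of the glandular ones, and H358 was the sole line without a peak. The 2 H2009 peaks did not overlap each other. The squamous peaks began near the start and ran into the gene, whereas the Ishikawa peaks straddled it, as the map of peaks shows. BICR31 alone had 2 more regions, at chr18:28567372-28568575 past the gene's end and at chr18:28644366-28644970 upstream.

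PERP lies in desmosomes of stratified epithelia and is required for their assembly in mouse skin. Its window held 3571 called bases in HCC95 and 5724 in BICR31, against 379 and 1311 in H358, 836 and 997 in H2009 and 2645 and 2430 in Ishikawa. The groups did not overlap, as in 13.5% of 150 kb tiles of the genome, by a gap of 926 bases beside a pooled replicate SD of 396 bases. The gap changed sign in 4 of 15 alternative settings, to values between -378 and -2645 bases. The start region chr6:138426102-138429294 was marked in all 8 libraries, with 954 called bases within 1 kb of the start in HCC95 and 1635 in BICR31, against 379 and 679 in H358, 595 and 997 in H2009 and 1561 and 1582 in Ishikawa. At the start HCC95 thus lay below Ishikawa and below 1 of the H2009 libraries.

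The difference at PERP came from outside the 1 kb around the start. In HCC95 the start peak ran 2512 bp into the gene, with a fold enrichment of 3.56. A region at the other end of the gene, chr6:138408096-138410794, was marked by a peak of 1059 bp in HCC95 and 2699 bp in BICR31, and of the glandular libraries just by 632 bp in H358 replicate 2. In BICR31 the start and the end belonged to 1 cluster of 4 peaks that spanned 21.2 kb and ranked 711 of 29737. The HCC95 cluster at the start ranked 1042 of 19855, and the glandular clusters ranked between 2238 and 13429 of their lists.

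DSP was the exception among the 5. The window held 2861 called bases in HCC95 and 6504 in BICR31, against 1660 and 2246 in H358, 1794 and 1730 in H2009 and 4025 and 4106 in Ishikawa. BICR31 was above every glandular library, while HCC95 was above the lung adenocarcinoma libraries and below both Ishikawa libraries, which gave a gap of -1245 bases. The gap was 2398 without HCC95 and 615 without Ishikawa. As a share of each list the order differed. HCC95 had 13.4 per 100000 called bases and BICR31 16. H358 had 14.1 and 18.7, H2009 16.5 and 15.1 and Ishikawa 9.72 and 12.6. By that measure HCC95 lay below the lung adenocarcinoma libraries and above both Ishikawa libraries.

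The DSP start, chr6:7541116-7543711, was marked in all 8 libraries. HCC95 had its shortest start peak of the 5 genes there, 493 bp with a fold enrichment of 4.36, and BICR31 had 1966 bp at 2.95. Called bases within 1 kb of the start were 493 in HCC95 and 1580 in BICR31, against 646 and 926 in H358, 304 and 967 in H2009 and 1755 and 1697 in Ishikawa. The Ishikawa peaks of 2596 and 2378 bp had scores of 383 and 424, higher than 90.8% and 90.6% of the peaks of their lists. An upstream region 35.2 kb from the start, chr6:7504524-7506678, was marked in both squamous libraries, in H358 replicate 2 and in H2009 replicate 1. BICR31 alone marked a region inside the gene, chr6:7553392-7554160. A further region, chr6:7589762-7591264, was marked in all libraries except HCC95 and lies at the start of the neighbouring gene SNRNP48, a subunit of the minor spliceosome. Without the peaks there the DSP window held 2861 called bases in HCC95 and 5724 in BICR31, against 893 and 1667 in H358, 1039 and 1216 in H2009 and 2596 and 2757 in Ishikawa, and the gap was 104 bases.

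**Figure D3:**
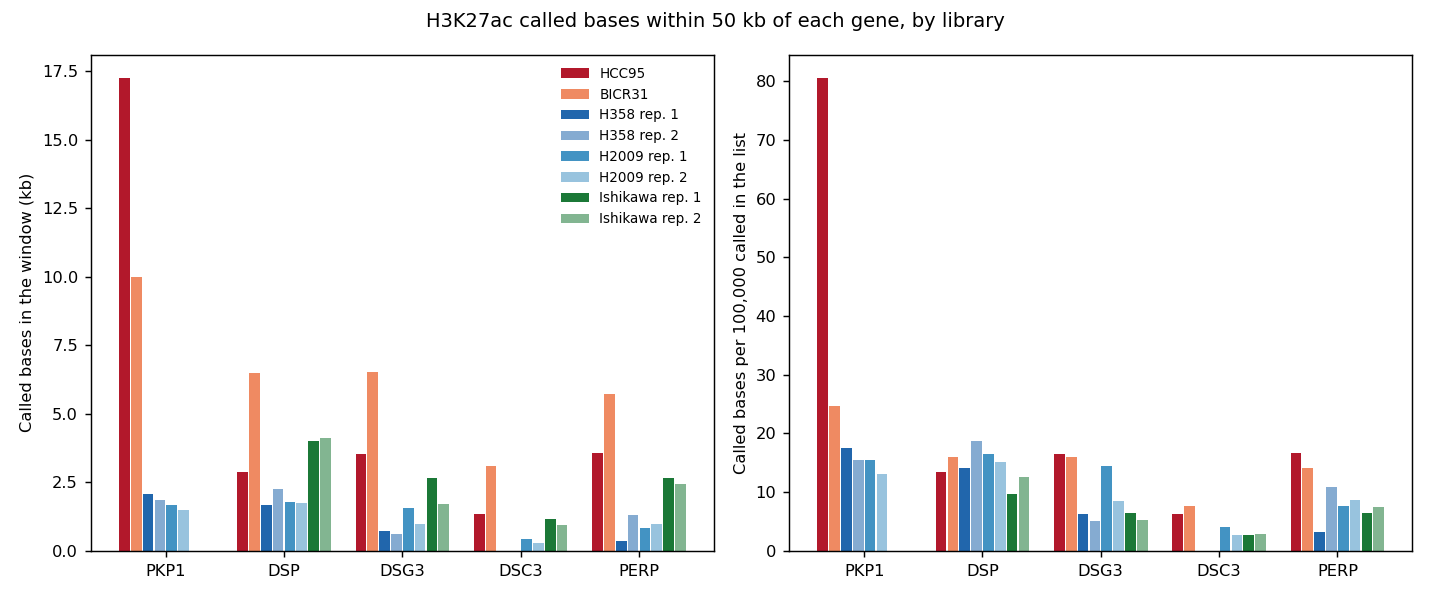
Called bases within 50 kb of each gene by library, as kb in the window (left) and per 100000 bases called in the whole list (right), with each squamous library left of the glandular libraries. Each bar is 1 library, without error bars; HCC95 reaches 17.2 kb at PKP1, the 2 squamous bars exceed all glandular bars at 4 genes on the left, and at DSP the Ishikawa bars exceed HCC95.

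As the bars by library show, both squamous libraries were above all 6 glandular libraries at 4 of the 5 genes, and not at DSP. Of 15770 tiles of 150 kb with a peak in at least 1 library, 13.5% had that pattern, and 22.3% of those with a peak in both squamous libraries. The opposite pattern, both squamous libraries below all glandular ones, was found at none of the 5 genes and in 0.793% of tiles. The tiles are not centred on genes, and the windows were 119 to 153 kb long. As a share of each list the pattern again held at 4 genes, and in 8.7% of tiles. By number of peaks it held at 2 genes and in 6.72% of tiles, and with peaks set to 500 bp around their middle at 2 genes and in 6.75% of tiles. In lists of equal length by fold enrichment it held at 1 gene and in 9.88% of tiles, and by −log10 q at 4 genes and in 10.3% of tiles. In the higher-ranked 50% of each list by fold enrichment it held at none of the genes and in 7.84% of tiles, and by −log10 q at 2 genes and in 8.44% of tiles.

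The gap between the lower squamous and the highest glandular library at PKP1 was above that of 99.98% of tiles, with 3 tiles equal or higher. The PERP gap was above 95.54% of tiles, the DSG3 gap above 95.32%, the DSC3 gap above 88.91% and the DSP gap above 40.03%. Because the genes were selected on these same lists, such ranks are a description and cannot serve as a test. The median tile had a gap of -825 bases, so the highest of 6 glandular libraries usually lay above the lower of 2 squamous ones.

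**Figure D4:**
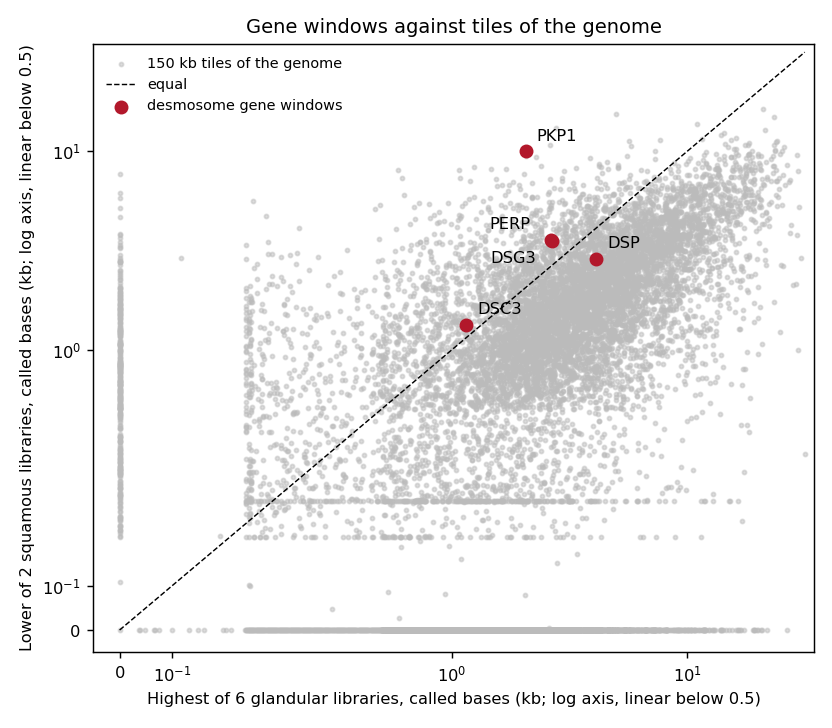
Called bases in the lower of the 2 squamous libraries (y axis) against the highest of the 6 glandular libraries (x axis), in kb on log axes that turn linear near 0, for 150 kb tiles of the genome (grey) and the 5 gene windows (red). Points above the dashed line have both squamous libraries above all glandular ones; PKP1 lies far above it with a gap of 7935 bases, DSG3, PERP and DSC3 just above it and DSP below it.

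In the plot of windows against tiles, PKP1, selected for its HCC95 cluster, stands apart from the other 4. Those 4 lie close to the line inside the cloud of tiles. DSG3 and PERP fall on nearly the same point.

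Over the 5 windows, the base-pair Jaccard index (called bases in both lists over those in either) was 0.331 between HCC95 and BICR31. HCC95 had 0.0766 to 0.118 with the glandular libraries and BICR31 0.0929 to 0.197. Replicates had 0.362 in H358, 0.372 in H2009 and 0.74 in Ishikawa, H358 with H2009 had 0.268 to 0.367, H2009 with Ishikawa 0.301 to 0.336 and H358 with Ishikawa 0.172 to 0.22. The value of the squamous pair was thus within the range found between glandular lines. Both squamous lists have the broad form, and the part that peak width plays in these values was not tested. By gene the index of HCC95 with BICR31 was 0.347 at PKP1, 0.278 at DSP, 0.256 at DSG3, 0.396 at DSC3 and 0.398 at PERP.

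The other desmosome genes showed which starts were marked regardless of the type of line. JUP, which encodes plakoglobin, had 729 called bases within 1 kb of its start in HCC95 and 1815 in BICR31, against 582 and 585 in H358, 801 and 880 in H2009 and 1057 and 1117 in Ishikawa. PKP3, DSG2 and DSC2, the more widely expressed family members, were likewise marked at the start in all 8 libraries. PKP2, the plakophilin of heart and simple epithelia, had 0 called bases in HCC95 and 1714 in BICR31, against 247 and 0 in H358, 355 and 397 in H2009, every base in Ishikawa replicate 1 and 1961 in Ishikawa replicate 2. DSC1, a desmocollin of the upper layers of the epidermis, had 672 called bases in HCC95 and none in the other libraries. DSG1, the desmoglein of the upper epidermis, and DSG4, that of hair, had no start peak in any library. Of these 8 genes, 5 had a start peak in HCC95 and 5 in BICR31, against 4 or 5 in each glandular library, so the count by library did not separate the groups. Their called bases within 5 kb of the gene summed to 10060 in HCC95 and 15408 in BICR31, against 3362 to 5809 in the lung adenocarcinoma libraries and 13818 and 17118 in Ishikawa. These sums are not scaled to the bases called in each list. The lists cover 21.4 Mb in HCC95 and 40.6 Mb in BICR31, against 10.9 to 12 Mb in the lung adenocarcinoma libraries.

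**Figure D5:**
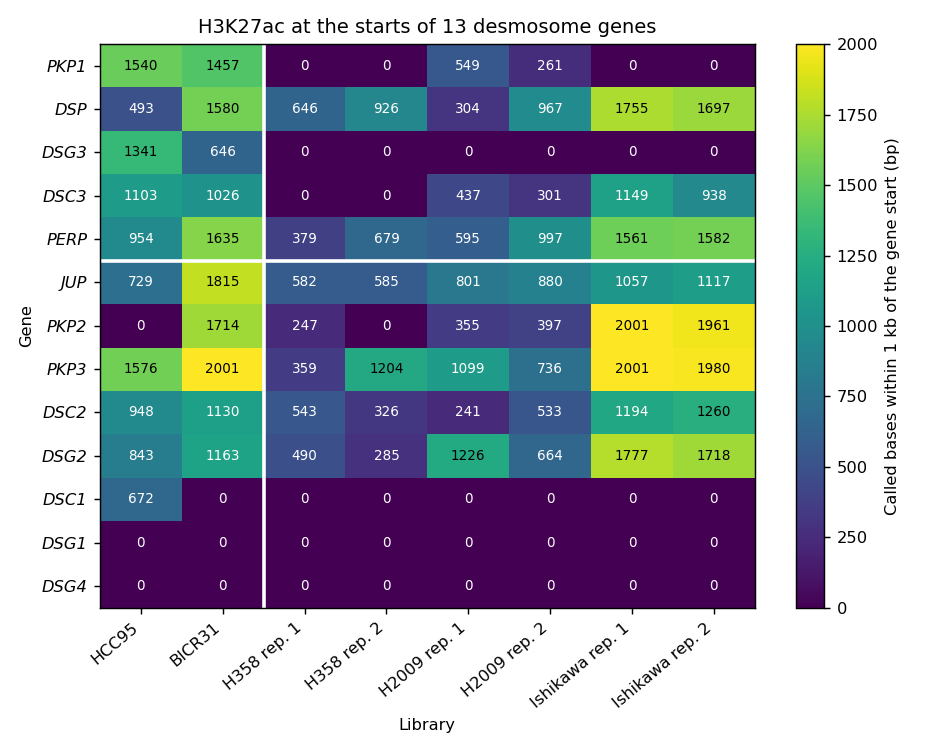
Called bases within 1 kb of the start of 13 desmosome genes, one row per gene and one column per library, squamous libraries at the left. Colour and the printed number both give the called bases of that cell; the 5 genes described here are above the white line, where DSG3 reads 1341 and 646 in the squamous columns and 0 in the others.

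The grid of starts shows how the rows differ. JUP, PKP3, DSG2, DSC2, DSP and PERP were marked in every column. DSG3 was marked in the squamous columns alone, PKP1 in those and H2009, and DSC3 in all lines except H358. PKP2 lacked a peak in HCC95 and H358 replicate 2, DSC1 had one in HCC95 alone, and DSG1 and DSG4 were empty. Over the 5 genes, 28 of the 40 pairs of gene and library had a start peak, and the number was the same within 5 kb of the start. The share over all gene starts was not counted, so this number has no background beside it.

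The choice of 50 kb left few peaks near the limit. The outermost PKP1 region inside it lay 43.4 kb from the gene, in HCC95, and the next outside lay at 50.6 kb, in BICR31. For DSP these distances were 44.9 and 54.7 kb, for DSG3 33.3 and 93.2 kb, and for PERP 35 and 52.7 kb. For DSC3 they were 21.6 and 57.9 kb, and the outer region, marked in all 8 libraries, lies at the start of DSC2.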

How the data were processed

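BWA and the hg19 build are named in the submitters' processing notes. The peak caller and its control are, in the sources used here, not given for most lists (Ishikawa peak names begin with MACS), and each deposited list was taken as called per sample. The authors' narrow (10 columns) and broad (9 columns) lists hold, per peak, a deposited fold enrichment ratio, −log10 values of p and q, and a score derived from them; the 5-column Ishikawa lists hold 1 deposited score, with a lowest value of 50. These are the authors' values and served only to describe and rank peaks within a list. The Ishikawa score stood in for both fold enrichment and −log10 q wherever peaks were ranked or scored by them. Autosomes 1 to 22 and chromosome X were kept, so 531 peaks (0.236%) of the 8 lists stayed out. Peaks that overlapped by at least 1 bp were merged into regions, and bases inside peaks were counted per window, per gene start (1 kb on either side) and per 150 kb tile.

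The members, the gene lists and the comparisons were chosen with earlier results of these data known. Genes named are the 5 members, the other 8 desmosome genes, neighbours whose starts lie in the windows and the marker genes. Positions of the 5 genes on hg19 came with their definition; those of 25 further genes were entered by hand from general knowledge of hg19, since no hg19 annotation was at hand. In the GRCh38.p14 RefSeq table all 25 lie on the same chromosome and 21 have a length within 10%. That table gave neighbours and promoters only; all 5 members matched. The scripts were tested on simulated peaks. Python 3.11.15, pandas 2.3.3, numpy 2.4.6 and scipy 1.17.1 were used. Alternatives covered the flank, the rank filter, each library, peak width and the share of each list.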

Additional observations from a re-analysis of the deposited data

How the results depend on the processing

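No paired analysis was possible because the results come from no test and the squamous lines have 1 library each. The count of squamous-only regions in the 5 windows, 4 as reported, was 0 in the higher-ranked 50% of each list by fold enrichment and 1 in lists of equal length by fold enrichment. By −log10 q these were 3 and 4. The count was 5 to 18 when a replicate or a squamous library was left out. The genome share was also higher there: the 5 (without replicate 1) were 13.2% of regions against 4.9% in the genome, and the 18 (without HCC95) 48.6% against 27.1%. The count of genes with both squamous libraries above all glandular ones, 4 as reported, was 0 in the higher-ranked 50% by fold enrichment and 1 in lists of equal length by fold enrichment. By −log10 q these were 2 and 4. The count was 2 by number of peaks, 2 with peaks of 500 bp, and 4 to 5 when libraries were left out. Squamous-only regions of the genome, 2516 as reported, numbered 770 in the higher-ranked 50% by fold enrichment, 1304 in lists of equal length, 898 and 1407 with the same filters by −log10 q, and 3026 to 18105 when libraries were left out. The share of tiles with that pattern, 13.5% as reported, was 8.7% by share of the list, 6.72% by number of peaks, 6.75% with peaks of 500 bp, 7.84% and 8.44% in the higher-ranked 50% by fold enrichment and by −log10 q, and 9.88% in lists of equal length. It was 22.3% of tiles with a peak in both squamous libraries, 40.2% without Ishikawa, and 15.3% to 44.7% when a replicate or a squamous library was left out. Ranking by −log10 q, removing peaks at neighbours' starts and the shares of tiles other than those by share of the list, in lists of equal length and in 100 kb tiles were chosen after seeing the data.

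Gaps between the lower squamous and the highest glandular library changed sign as follows. In the higher-ranked 50% by fold enrichment they were -457 bases at PKP1, -1491 at DSG3, -437 at DSC3 and -2645 at PERP. In lists of equal length by fold enrichment they were -1147 at DSG3, -1149 at DSC3 and -2645 at PERP. In the higher-ranked 50% by −log10 q they were -1413 at DSG3 and -378 at PERP. With peaks of 500 bp they were -500 at DSC3 and -500 at PERP, and with 100 kb flanks -482 at DSC3. The DSP gap was 104 without peaks at the starts of DSG2 and SNRNP48, and ranged from -1245 to 2398 when libraries were left out, with 615 without Ishikawa. Of 15 settings the gap was above 0 in 14 for PKP1, 12 for DSG3, 11 each for DSC3 and PERP and 3 for DSP. The cause of these changes was not tested; the wide peaks near PKP1 in HCC95 rank low by fold enrichment, as low as 0.607%.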

Other observations

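Outside the 8 untreated lists, 4 short H2009 lists labelled Empty, Control, e3KRAB1 and e3KRAB2 held 1960, 3250, 2315 and 1375 peaks. In the 5 windows the Control list had 2 peaks, at the DSP start (chr6:7542652-7543049, fold enrichment 6.36) and at the PERP start (chr6:138428058-138428367, fold enrichment 4.51). The Empty, e3KRAB1 and e3KRAB2 lists had none there. Peak names in the list labelled e3KRAB2 carry the tag Ctrl2, and those in the list labelled Control carry D98, so the labels of these lists are in doubt. Both starts were among those marked in all 8 longer lists. At these list lengths the lack of a peak at the other starts cannot be read as a lack of the mark.

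The lung adenocarcinoma marker NKX2-1 and the endometrial marker ESR1 had called bases in BICR31, named as squamous in the series text. The tumor type entered for its sample is lung adenocarcinoma. NKX2-1 had 1840 called bases within 5 kb of the gene in BICR31 and none in HCC95, against 855 and 1194 in H358 and none in H2009 or Ishikawa. ESR1, the estrogen receptor, had 6755 called bases within 5 kb of the gene in BICR31 and none in HCC95, against 494 and 998 in H358, 1805 and 858 in H2009 and 12535 and 11252 in Ishikawa, and its start was marked in Ishikawa alone.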
